A study of Rattus norvegicus with 60 samples.

Results

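Gstp1 encodes the pi-class glutathione S-transferase, and its level in rat liver is described here across the doses of 2 related aromatic amines. Its members were all probe sets that the platform annotation assigns to Gstp1 alone. There was 1 such probe set among 31042 that were tested, and it stands for 1 of 14217 genes that have a probe set of their own. The gene was chosen by its differences from vehicle on these same arrays, which were the largest of the series at the higher doses, so its levels, its differences from vehicle and its differences between the chemicals are given as a description, without a test.

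RNA from the liver of male F344/N rats was hybridized to 60 Affymetrix 3′ expression arrays. The rats were 5 to 6 weeks old at the start and were housed 2 per cage. They received N,N-dimethyl-p-toluidine (DMPT) or p-toluidine by gavage in corn oil, 2.5 ml/kg, once a day for 5 days. p-Toluidine is the parent amine and lacks the N-methyl groups that DMPT carries. Each chemical had a vehicle group (corn oil, 0 mg/kg) and groups at 1, 6, 20, 60 and 120 mg/kg per day, with 5 arrays in every group and no other allele or agent named. The tissue came from the left lateral lobe. Which animal or cage an array came from is not labelled, so the spread within a group and every p-value measure the variation between these samples only.

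Glutathione S-transferases join the tripeptide glutathione to reactive electrophiles, which makes them soluble and marks them for export. In the normal adult rat liver the pi-class enzyme is low in hepatocytes and is found mainly in bile duct epithelium. In rats treated with hepatocarcinogens it becomes abundant in altered hepatocytes, and it has long been used as a marker of preneoplastic foci. The gene carries a strong enhancer far upstream, outside the window printed here, to which factors of the AP-1, NRF2 and Maf families bind.

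The bases just before the start of Gstp1 are shown because the data turn on transcript levels of this gene, next to those of its neighbour Gstp3, which did not share its change. Both windows hold the 250 bases before the start of transcription in RefSeq (assembly GRCr8), 5′ to 3′ on the gene's own strand. The Gstp1 window is chr1:210769706-210769955 and the Gstp3 window chr1:210787685-210787934, both on the minus strand. Capitals mark TGACTCAGC, which reads at once as an AP-1 site and as the core of an antioxidant response element.
Gstp1: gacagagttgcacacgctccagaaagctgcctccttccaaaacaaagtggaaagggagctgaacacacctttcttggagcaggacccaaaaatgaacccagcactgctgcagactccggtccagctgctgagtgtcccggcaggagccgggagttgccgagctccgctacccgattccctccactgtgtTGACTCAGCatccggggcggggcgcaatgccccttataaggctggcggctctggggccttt
Gstp3: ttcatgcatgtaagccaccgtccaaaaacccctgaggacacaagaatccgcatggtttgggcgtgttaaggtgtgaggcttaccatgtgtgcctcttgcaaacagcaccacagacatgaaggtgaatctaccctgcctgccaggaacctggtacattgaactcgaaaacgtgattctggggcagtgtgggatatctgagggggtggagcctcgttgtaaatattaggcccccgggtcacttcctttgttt

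Motifs were searched on both strands as plain letters. In the Gstp1 window TGACTCA, the AP-1 site, lay at positions -61 to -55, counted back from the start site. TGACNNNGC, the core of the antioxidant response element, lay at -61 to -53 on the same bases. GGGCGG, an Sp1 box, lay at -47 to -42, and TATAA, the TATA box, at -27 to -23, with an overlapping match on the other strand. Of 27457 rat promoters of the same length, 3.98% held TGACTCA, 10.2% held TGACNNNGC and 0.375% (103 promoters) held TGACTCAGC. GGGCGG stood in 32.4% and TATAA in 24.1%. The Gstp3 window held none of TGACTCA, TGACNNNGC or GGGCGG. A match describes letters in this window and is neither a binding site nor a cause.

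Gstp1 had its lowest means in the vehicle and 1 mg/kg groups, and at 120 mg/kg it was among the brightest signals on every array. With DMPT the mean log2 level went from 6.11 ± 0.40 (SD, n = 5) in vehicle to 12.02 ± 0.16 at 120 mg/kg. With p-toluidine it went from 5.60 ± 0.38 to 12.00 ± 0.19. Each chemical's arrays seem to have been normalized on their own, since array medians ran from 3.53 to 3.61 with DMPT and from 2.73 to 2.81 with p-toluidine. Levels are therefore compared within a chemical only. In whole liver, a change in the number of cells that make a transcript and a change in the amount per cell cannot be told apart.

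The 5 DMPT vehicle arrays, replicates 1 to 5, had Gstp1 log2 levels of 5.65, 6.37, 5.72, 6.53 and 6.30. The 1 mg/kg arrays read 6.31, 6.16, 6.60, 6.64 and 6.49, and those given 6 mg/kg read 6.09, 8.18, 6.61, 8.41 and 8.86. The 1 mg/kg arrays lay inside or just above the vehicle range, with 2 of 5 above its top. At 6 mg/kg the group was split: replicate 1 lay within the vehicle range, replicate 3 just above it, and replicates 2, 4 and 5 well above it. The 20 mg/kg arrays read 9.37, 10.55, 11.01, 10.81 and 9.62. The 60 mg/kg arrays read 11.59, 11.75, 11.33, 11.67 and 11.65, and the 120 mg/kg arrays 12.23, 12.05, 11.93, 12.10 and 11.80. From 20 mg/kg upward all 5 arrays of each group lay above every array of the next lower group.

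The 5 p-toluidine vehicle arrays had log2 levels of 5.08, 5.91, 5.32, 5.90 and 5.77. At 1 mg/kg the levels were 5.46, 5.62, 5.96, 5.72 and 5.24, and for 6 mg/kg 5.70, 4.98, 6.39, 5.80 and 5.69. Both low doses overlapped vehicle, with 1 of 5 arrays above its top in each. The 20 mg/kg group read 8.16, 9.19, 8.75, 6.52 and 7.15, the widest scatter of any p-toluidine group, yet all above vehicle. The 60 mg/kg group read 11.47, 10.40, 10.63, 11.04 and 11.12, and the 120 mg/kg group 11.92, 11.96, 11.82, 11.99 and 12.32. As with DMPT, groups from 20 mg/kg upward did not overlap the next lower one.

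**Figure D1:**
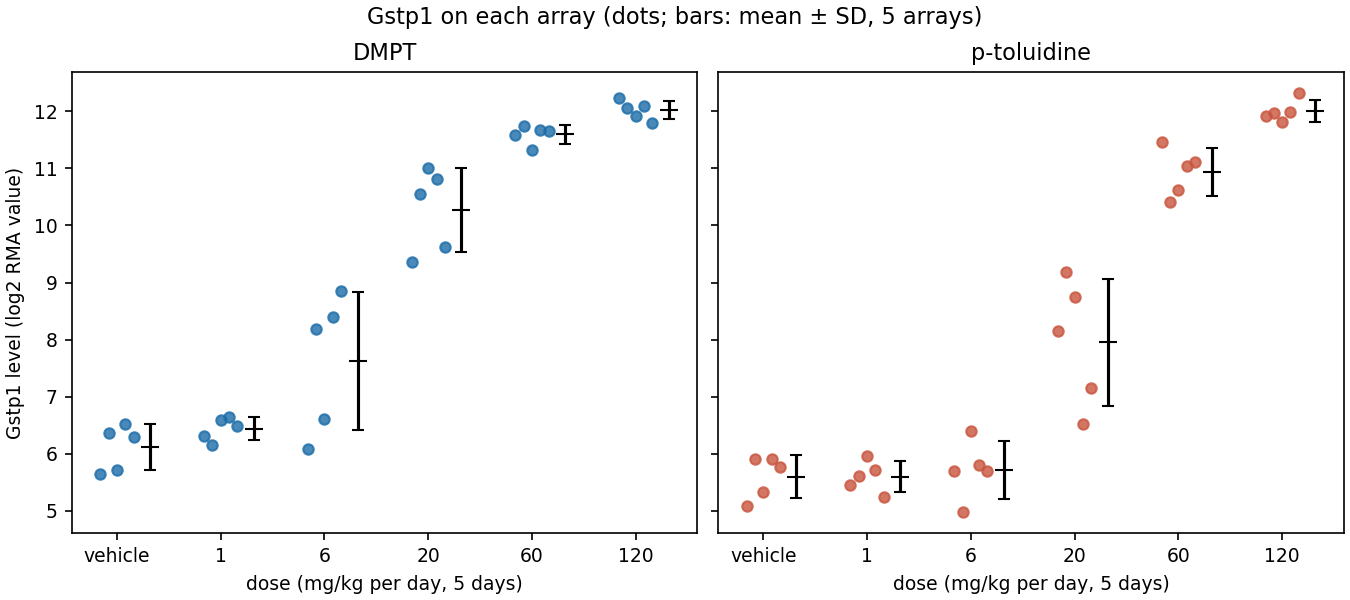
Gstp1 log2 level (vertical axis) on each of the 60 arrays against dose in mg/kg per day, DMPT at left and p-toluidine at right. Dots are single arrays and the bars give mean ± SD of 5. The DMPT arrays spread out at 6 mg/kg (6.09 to 8.86) and the p-toluidine arrays at 20 mg/kg (6.52 to 9.19), and both sets close up near 12.0 at 120 mg/kg.

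Against its own vehicle group, Gstp1 under DMPT differed on the log2 scale by 0.33 ± 0.34 (SE from limma, n = 5 per group) at 1 mg/kg, with a 95% interval from -0.37 to 1.03. The difference was 1.52 at 6 mg/kg (0.82 to 2.21, or 2.86-fold) and 4.16 at 20 mg/kg (17.9-fold). It reached 5.48 at 60 mg/kg (44.7-fold) and 5.91 at 120 mg/kg, or 60.1-fold with an interval from 37.0 to 97.5. The steepest step was from 6 to 20 mg/kg, at 2.64. The last step, from 60 to 120 mg/kg, was 0.43 with an interval from -0.27 to 1.12, and the arrays of these groups did not overlap. Each interval rests on 1 spread shared by the 6 groups, whose own SDs ran from 0.16 to 1.21. The intervals are thus too narrow for the wide 6 mg/kg group and, to a lesser degree, for the 20 mg/kg group (SD 0.73). They are too wide for the 60 and 120 mg/kg groups.

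The SE of 0.32 at each p-toluidine dose also rests on a shared spread, while the group SDs ran from 0.19 to 1.11. The interval at 20 mg/kg, the widest group, is thus too narrow. Under p-toluidine the difference from vehicle was 0.0048 at 1 mg/kg and 0.12 at 6 mg/kg (-0.53 to 0.77). It was 2.36 at 20 mg/kg (1.71 to 3.00, or 5.12-fold), 5.34 at 60 mg/kg (40.4-fold) and 6.41 at 120 mg/kg, or 84.8-fold with an interval from 54.2 to 133. Here the steepest step was from 20 to 60 mg/kg, at 2.98, and the last step was still 1.07 (0.42 to 1.72). In both chemicals Gstp1 had the largest upward difference of all 31042 probe sets from 20 mg/kg upward. At 6 mg/kg it ranked 4 among genes with DMPT, behind the imprinted RNA H19 (2.03 ± 0.53), the metallothionein Mt2A (1.71) and the basolateral exporter Abcc3 (1.56), of which only Abcc3 was called, and 1773 with p-toluidine.

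The responses to the chemicals were set side by side at each matched dose in mg/kg. The difference of responses, DMPT minus p-toluidine, was 0.32 at 1 mg/kg (95% interval -0.67 to 1.31), 1.40 at 6 mg/kg (0.41 to 2.38) and 1.80 at 20 mg/kg (0.82 to 2.79, or 3.49-fold). At 60 mg/kg it was 0.15 (-0.84 to 1.13), and at 120 mg/kg it was -0.50 (-1.49 to 0.49). After quantile normalization over all 60 arrays, the difference was 1.42, 1.89, 0.31 and -0.18 at 6, 20, 60 and 120 mg/kg. Each chemical's arrays seem to have been normalized on their own. Chemical and array set therefore cannot be told apart in any difference between the chemicals. As deposited, the 5 differences had an SE of 0.49, from a spread shared by all 12 groups. It is too small where a group was wide, at 6 and 20 mg/kg. The point values were thus largest at 6 and 20 mg/kg, and they are descriptions, as the gene was chosen by its responses. Among genes, the difference at 20 mg/kg ranked 1.

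Equal doses by mass are not equal by molecule, since DMPT is 1.26 times as heavy as p-toluidine. At 120 mg/kg the animals received 0.888 mmol/kg of DMPT or 1.12 mmol/kg of p-toluidine. Interpolated between the tested doses on a log dose axis, the log2 response passed 50% of its value at 120 mg/kg at 11.6 mg/kg of DMPT and at 27.3 mg/kg of p-toluidine. In molar terms these were 0.0854 and 0.255 mmol/kg. The molar doses of the chemicals do not match at any group, so only the values are set side by side.

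**Figure D2:**
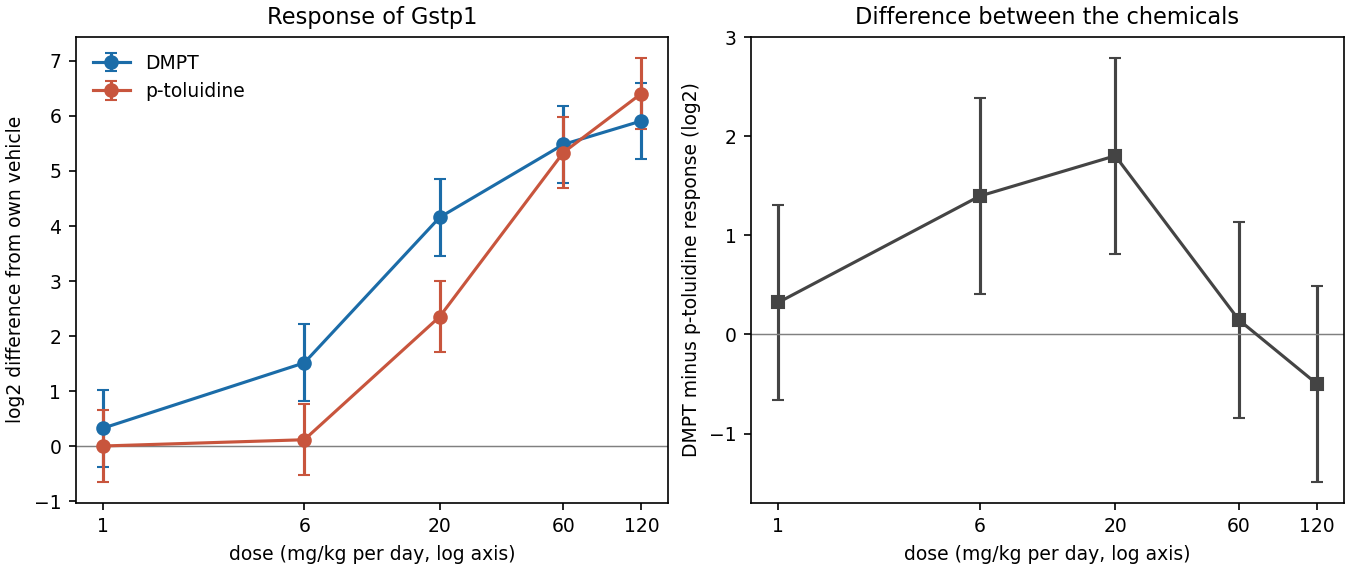
Left, the log2 difference of Gstp1 from its own vehicle group (vertical axis) against dose on a log axis in mg/kg per day, for DMPT (blue) and p-toluidine (red), with 95% intervals. Right, the DMPT response minus the p-toluidine response at each dose, with 95% intervals; it peaks at 1.80 at 20 mg/kg and lies near 0 at 60 mg/kg.

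The spread of Gstp1 between arrays of a group changed with dose. At 6 mg/kg of DMPT the SD was 1.21 log2 units, and only 11 of 31042 probe sets had a larger SD in that group, where the median was 0.142. The 20 mg/kg DMPT group had an SD of 0.73. With p-toluidine the wide group was 20 mg/kg, with an SD of 1.11 and only 10 probe sets above it. In the top dose groups the SD was 0.16 with DMPT and 0.19 with p-toluidine, near the medians over all probe sets of 0.143 and 0.134. The wide groups lay where the mean began to leave the vehicle level. The vehicle groups, with SDs of 0.40 and 0.38, were also wider than most probe sets.

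**Figure D3:**
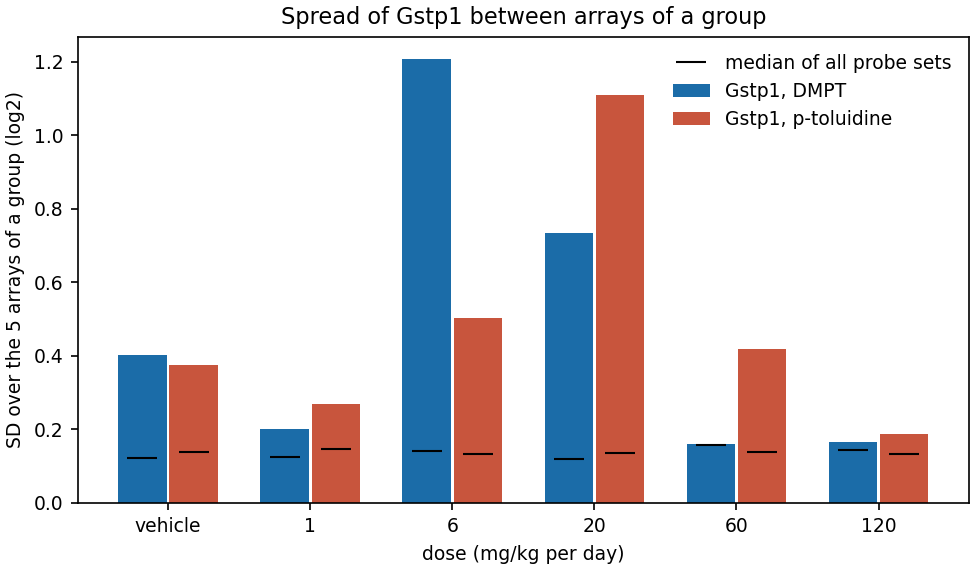
Standard deviation of the Gstp1 log2 level over the 5 arrays of each group (vertical axis, bars from 0) by dose, DMPT blue and p-toluidine red. The short black lines give the median SD of all probe sets in the same group; Gstp1 stands far above them at 6 mg/kg of DMPT (1.21) and 20 mg/kg of p-toluidine (1.11).

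The rank of a probe set within an array does not change when the whole array is shifted or rescaled. These ranks still rest on the processing of each chemical's arrays, so they too are compared within a chemical only. In vehicle livers, a mean of 5504 probe sets with DMPT and 5079 with p-toluidine were brighter than Gstp1. In the 20 mg/kg groups the means were 397 and 1450. In the 120 mg/kg groups between 40 and 65 were brighter on the DMPT arrays and between 23 and 44 on the p-toluidine arrays. The probe set reached 12.2 to 12.3 at most, and the brightest probe set of every array lay at 13.6 or above.

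Genes whose levels followed Gstp1 were ranked by Pearson r over the 30 DMPT arrays, among 13979 genes. This choice depends on the measure: 6 of the 10 highest stayed with Spearman rho and 0 with the 6 group means. The 10 highest included 4 other transferases of glutathione: Gsta4 (r = 0.95), Gstm1 (0.95), Gsta1 (0.93) and the microsomal Mgst2 (0.91). The others were Dap, a regulator of cell death and autophagy (0.95), Isyna1, which makes inositol phosphate (0.93), the sialidase Neu2 (0.92), the glycosyltransferase Galnt11 (0.91), the folate enzyme Aldh1l1 (0.91) and Wdr6 (0.90). All of them differ between doses, which the correlation includes, and the arrays share their dose groups. On the 30 separate p-toluidine arrays r was 0.90 to 0.96 for 9 of the 10 and 0.73 for Galnt11. Of the 10 genes most alike on the p-toluidine arrays, 6 were among these 10. The genes most opposite on the DMPT arrays were Icoslg (-0.94), Slc26a1 (-0.93) and Cyfip2 (-0.92).

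These like genes moved far less than Gstp1. At 120 mg/kg of p-toluidine, arrays that did not choose them, all 10 rose, by between 0.52 ± 0.12 (Galnt11, limma adjusted p = 0.00344) and 2.55 ± 0.18 (Isyna1, adjusted p = 7.44e-12). Gsta4 rose by 1.32 and Dap by 1.40. Gstm1, a mu-class transferase already abundant in normal liver, rose by 1.24 ± 0.09 (adjusted p = 4.81e-11).

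Within the split 6 mg/kg DMPT group, Gstm1 stood at 11.55, 12.08, 11.84, 11.99 and 12.26 in replicates 1 to 5. Its lowest and highest arrays, replicates 1 and 5, were also those of Gstp1. In the 20 mg/kg p-toluidine group Gstm1 stood at 11.53, 11.77, 11.65, 11.66 and 11.38, again highest in replicate 2, but lowest in replicate 5, where Gstp1 was lowest in replicate 4. Over all arrays, deviations of Gstm1 from its group means correlated with those of Gstp1 at r = 0.75 with DMPT and 0.59 with p-toluidine (n = 30 each). The middle 95% of genes lay between -0.43 and 0.54 and between -0.40 and 0.41. For Galnt11 these values were 0.65 and 0.07, and for Dap 0.38 and 0.65. Gsta4 had 0.56 and 0.32, Wdr6 0.58 and 0.19 and Isyna1 0.43 and 0.65. Gsta1 (0.35 and 0.26), Neu2 (0.26 and 0.29), Mgst2 (0.52 and 0.20) and Aldh1l1 (0.40 and 0.38) lay inside both ranges. All of these genes were chosen on the same DMPT arrays by an r that includes the deviations, so their DMPT values are partly set by that choice.

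The other glutathione S-transferases did not move as one family. Of 20 measured genes of the family (without the pi class), 2 rose at 6 mg/kg of DMPT, where 0.0774% of all genes rose. Of all genes 0.211% were called there in either direction. With 20 mg/kg 8 rose and none fell, while 1.74% of all genes rose and 1.6% fell. With 60 mg/kg 9 rose and none fell, while 2.42% of all genes rose and 4.89% fell (7.31% in all). With 120 mg/kg 10 rose and 1 fell, while 5.29% of all genes rose and 7.43% fell. The median of the family at 120 mg/kg was 0.25, against -0.0014 for all genes. With p-toluidine none was called at 6 mg/kg, where no gene was called (2557 probe sets had an unadjusted p below 0.05 in limma). At 20 mg/kg 5 rose and none fell, while 0.626% of all genes rose and 0.457% fell (1.08% in all). At 60 mg/kg 11 rose and none fell, while 3.01% rose and 3.59% fell. At 120 mg/kg 12 rose and 1 fell, while 7.84% rose and 6.91% fell, and the median was 0.49, against -0.0025. Each count rests on limma p-values adjusted by Benjamini-Hochberg across every probe set tested.

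Gsta3, an alpha-class enzyme known for detoxifying aflatoxin epoxide, rose by 2.69 ± 0.39 at 120 mg/kg of DMPT (adjusted p = 1.75e-05) and by 2.78 ± 0.29 at 120 mg/kg of p-toluidine (adjusted p = 3.42e-08). The theta-class Gstt3 rose by 2.47 ± 0.21 and 2.43 ± 0.17. Gstt3 and Gstm1 were the 2 members called at 6 mg/kg of DMPT, at 1.32 ± 0.21 and 0.55 ± 0.08. Gstm7 was the member that fell, to -0.34 with DMPT and -0.48 with p-toluidine. Abundant Mgst1 was at 0.03 and 0.09, and Gstz1, an enzyme of tyrosine breakdown, at -0.19 and -0.14, neither of them called.

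Gstp3, the adjacent gene of the same class, did not share the change. Its vehicle level was already high, and at 120 mg/kg it stood at -0.20 ± 0.14 against vehicle with DMPT (adjusted p = 0.46) and at -0.51 ± 0.22 with p-toluidine (adjusted p = 0.156). On the DMPT arrays it had levels of 11.00, 11.07, 10.74, 10.74 and 10.99 in vehicle and 10.88, 10.32, 10.61, 10.95 and 10.80 at 120 mg/kg, which overlap. On the p-toluidine arrays the levels were 10.20, 10.25, 9.99, 10.14 and 9.61 in vehicle and 9.06, 9.93, 10.29, 9.99 and 8.39 at 120 mg/kg, which overlap too. How far the probes of these paralogues bind each other's transcript was not tested.

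Among the nearest measured genes on the chromosome, Ndufv1, Doc2g and Nudt8 on one side had values from -0.15 to 0.10 at 120 mg/kg and were not called in either chemical. On the other side, beyond Gstp3, Cdk2ap2 rose by 0.28 ± 0.09 with DMPT (adjusted p = 0.0336, a call lost in 6 of 10 fits that left out 1 array). Pitpnm1 rose by 0.40 ± 0.08 with p-toluidine (adjusted p = 0.000888). Neither was called with the other chemical, where Cdk2ap2 was at 0.07 and Pitpnm1 at 0.12. At 120 mg/kg 12.7% of all genes were called with DMPT and 14.8% with p-toluidine.

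Targets of NRF2, the factor that switches on antioxidant and conjugating enzymes when its inhibitor KEAP1 is modified, were counted in the same way. Of 25 measured targets outside the transferases, 2, 4, 11 and 15 rose at 6, 20, 60 and 120 mg/kg of DMPT, with 1 that fell at each of the last doses and a median of 0.41 at 120 mg/kg, against -0.0014 for all genes. The share of all genes that rose also climbed over these doses, from 0.0774% to 1.74%, 2.42% and 5.29%. With p-toluidine 4, 10 and 19 rose at 20, 60 and 120 mg/kg, and 1 fell at 60 mg/kg, with a median of 0.62 at 120 mg/kg against -0.0025, while 0.626%, 3.01% and 7.84% of all genes rose. The largest rises were those of Akr7a3, an aflatoxin aldehyde reductase, at 3.69 ± 0.22 with DMPT and 4.22 ± 0.23 with p-toluidine. Akr1b8, another aldo-keto reductase, rose by 3.08 ± 0.39 and 4.15 ± 0.26, the quinone reductase Nqo1 by 2.72 ± 0.18 and 2.82 ± 0.19, and the glutathione peroxidase Gpx2 by 2.62 and 2.76. Not all targets moved: the sulfiredoxin Srxn1 was at -0.03 and 0.01 at 120 mg/kg, uncalled, and the thioredoxin reductase Txnrd1 fell by 0.30 with DMPT.

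**Figure D4:**
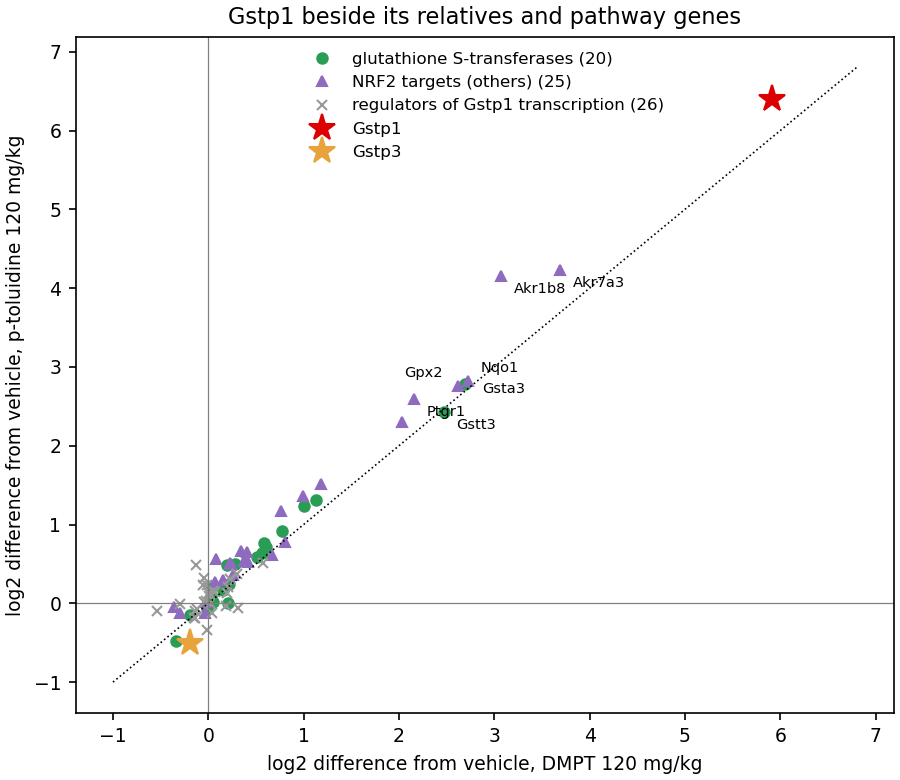
Log2 difference from vehicle at 120 mg/kg, DMPT on the horizontal axis and p-toluidine on the vertical axis, for 20 other glutathione S-transferases (green), 25 further NRF2 targets (purple), 26 regulators (grey crosses), Gstp1 and Gstp3 (stars). The dotted line marks equal values. Gstp1 lies at 5.91 and 6.41, beyond Akr7a3 (3.69 and 4.22), while the regulators lie between -0.53 and 0.57 on both axes.

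The dose at which these genes took up their change differed. At 20 mg/kg of DMPT, Gstp1 had 70.4% of its log2 change at 120 mg/kg, Gstm1 71.9%, Gstt3 71.1% and Abcc3 80.5%. At the same dose Akr7a3 had 21.0%, Nqo1 12.0% and Akr1b8 5.81%. With p-toluidine at 20 mg/kg, Gstp1 had 36.8%, Gstm1 52.4%, Gstt3 61.8%, Abcc3 71.6%, Akr7a3 38.1%, Nqo1 15.8% and Akr1b8 2.82%. In both chemicals Nqo1 and Akr1b8 therefore took up most of their change above 20 mg/kg, and Akr1b8 most of it above 60 mg/kg, where it had 11.3% with DMPT and 19.7% with p-toluidine. These shares are descriptions, and their differences between genes were not tested.

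**Figure D5:**
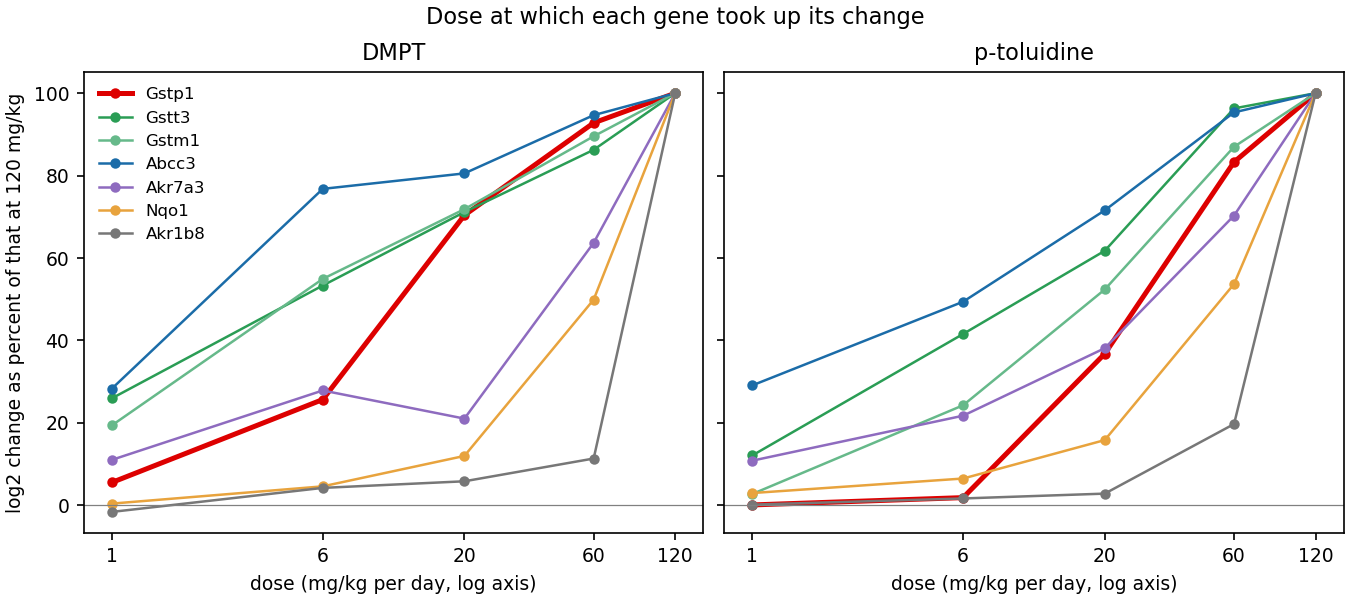
Log2 change from vehicle as a percent of the change at 120 mg/kg (vertical axis) against dose on a log axis in mg/kg per day, DMPT at left and p-toluidine at right, for Gstp1 (thick red line) and 6 other genes. At 20 mg/kg of DMPT Gstp1 is at 70.4%, close to Gstm1 and Gstt3, while Nqo1 and Akr1b8 lie at 12.0% and 5.81%.

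Factors that can act on the Gstp1 gene were read as transcripts. Of 26 measured regulators none was called at 6 or 20 mg/kg of DMPT, where 0.211% and 3.33% of all genes were called. At 60 mg/kg 2 rose, while 2.42% of all genes rose and 7.31% were called in all. At 120 mg/kg 2 rose, with a median of -0.0035, while 5.29% of all genes rose and 12.7% were called in all. The 2 called at 120 mg/kg were Maff, a small Maf protein that pairs with NRF2, at 0.57 ± 0.14 (adjusted p = 0.00862), and Nfe2l1, a relative of NRF2, at 0.30 ± 0.08 (adjusted p = 0.018, a call lost in 2 of 10 fits that left out 1 array). Over the mean of its probe sets Nfe2l1 was at 0.20 (adjusted p = 0.0958). Maff was no longer called without 5 arrays of narrow spread (0.49, adjusted p = 0.0707). With p-toluidine Ahr, the dioxin receptor, rose by 0.57 at 20 mg/kg while Jund, an AP-1 subunit, and Nfe2l2 fell. At that dose 1.08% of all genes were called. At 60 and at 120 mg/kg 2 rose and 1 fell, where 6.6% and 14.8% of all genes were called. Nfe2l1 was among those that rose at 120 mg/kg of p-toluidine, by 0.37, a call kept in all 10 fits that left out 1 array. Maff was at 0.51 there, uncalled. At 120 mg/kg Keap1 was at -0.05 and 0.02, Jund at 0.31 and -0.06 and Ahr at -0.53 and -0.10, none of them called.

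Nfe2l2, which encodes NRF2 itself, was not called higher with either chemical. With DMPT it was between -0.24 and -0.01 at 6 to 120 mg/kg, never called. With p-toluidine it fell by 0.57 ± 0.10 at 20 mg/kg (adjusted p = 0.00338), by 0.65 at 60 mg/kg (adjusted p = 0.000104) and by 0.34 at 120 mg/kg (adjusted p = 0.0226, lost in 4 of 10 fits that left out 1 array). Its p-toluidine levels were 8.26, 8.27, 8.36, 8.50 and 8.35 in vehicle and 7.65, 8.06, 7.53, 7.68 and 7.57 at 60 mg/kg, which do not overlap. The difference between the chemicals at 60 mg/kg was 0.55 with an interval from 0.24 to 0.86, but it was not called after adjustment over all probe sets. Transcript levels do not show how much NRF2 protein was active.

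The genes that supply glutathione to the enzyme moved in both directions. Of 12 measured, 2 rose and 1 fell at 120 mg/kg of DMPT, and 4 rose and 2 fell at 120 mg/kg of p-toluidine, with medians of -0.0069 and -0.015, where 12.7% and 14.8% of all genes were called. Gsr, which regenerates reduced glutathione, rose by 0.99 ± 0.13 and 1.36 ± 0.14. Gclm, the modifier subunit of the first enzyme of glutathione synthesis, rose by 0.76 ± 0.09 and 1.18 ± 0.10, while its catalytic partner Gclc was at 0.15 and 0.29, uncalled. Gclm also stands among the NRF2 targets above, so its rise is counted in both lists. Cbs, which feeds the cysteine supply, fell by 0.40 and 0.41.

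Of 15 genes for export and breakdown of conjugates, 3 rose and 2 fell at 120 mg/kg with each chemical, beside the same 12.7% and 14.8% of all genes called. The exporter Abcc3, which pumps conjugates back to blood, rose by 2.04 ± 0.28 and 2.30 ± 0.31, and it was the 1 member called at 6 mg/kg of DMPT (1.56 ± 0.28, adjusted p = 0.00917). Abcc3 is counted among the NRF2 targets too. Ggt1, which cleaves glutathione conjugates, rose by 0.52 and 0.46. The canalicular exporter Abcc2 was at 0.07 and 0.27, uncalled. Nat8, which completes mercapturic acids, was at -0.38 with DMPT and fell by 0.55 with p-toluidine (a call lost in 2 of 10 fits that left out 1 array). Of 8 partners that bind the Gstp1 protein, 2 fell with DMPT, where 7.43% of all genes fell: Mapk9 (-0.38, not called without the 5 arrays of narrow spread) and Cdk5 (-0.29, a call lost in 1 of 10 fits that left out 1 array). With p-toluidine Mapk9 fell (-0.40, a call lost in 6 of 10 fits that left out 1 array) and Prdx6 rose by 0.41.

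Of 15 other genes used as markers of altered liver foci, 10 rose with DMPT and 9 with p-toluidine at 120 mg/kg, and none fell, with medians of 1.18 and 1.48, while 5.29% and 7.84% of all genes rose. With 20 mg/kg of either chemical 5 rose, while 1.74% of all genes rose with DMPT and 0.626% with p-toluidine. The list shares Gpx2, Nqo1, Akr7a3, Akr1b8, Abcc3 and Ephx1 with the NRF2 targets and Epcam with the bile duct markers. Afp, the fetal albumin relative, was at -0.02 and -0.08 and Gpc3 at -0.23 and -0.25, none of them called. H19 rose by 1.61 with DMPT (adjusted p = 0.0469, a call lost in 7 of 10 fits that left out 1 array) and was at 1.48 with p-toluidine (adjusted p = 0.183). Arrays of whole tissue taken after 5 days do not show whether foci were present.

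The compounds were also compared for these genes, at 5 matched doses, by testing the difference of responses in a fit of all 60 arrays. None of the listed genes was called at any of the 5 doses, where at 120 mg/kg 0.0141% of all genes were called. By limma, 2160, 1876, 2280, 1488 and 2059 probe sets had an unadjusted p below 0.05 at 1, 6, 20, 60 and 120 mg/kg. For Gstm1 the difference was 0.07 at 20 mg/kg (-0.17 to 0.32) and -0.23 at 120 mg/kg (-0.48 to 0.02). For Gsta3 it was -0.08 at 120 mg/kg (-1.11 to 0.95), for Isyna1 -0.79 (-1.24 to -0.34) and for Akr1b8 -1.08 (-2.06 to -0.09). A missing call does not show equal action, and the intervals of Gsta3, Isyna1 and Akr1b8 reach beyond 1 log2 unit.

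Cells other than hepatocytes also make Gstp1, and their markers were read on the same arrays. Of 14 markers of bile duct cells, 3 rose and 1 fell at 120 mg/kg of DMPT, and 3 rose with p-toluidine, with medians of 0.07 and 0.12, where 12.7% and 14.8% of all genes were called. The mean log2 level of the 14 ran from 3.47 to 3.73 over the DMPT vehicle arrays and from 3.71 to 3.94 at 120 mg/kg. With p-toluidine it ran from 2.84 to 3.08 and from 3.02 to 3.33. Epcam rose by 1.47 ± 0.13 and 1.84 ± 0.12 and Anxa4 by 0.53 and 0.72. With DMPT Cd24 rose by 0.69 and Slc4a2 fell by 0.63. With p-toluidine they were at 0.22 and -0.20, both uncalled. The keratins that define these cells were low and were not called: Krt19 was at 0.07 and -0.35 and Krt7 at -0.10 and -0.06. The part of such cells in the Gstp1 values was not tested.

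Of 9 erythroid markers, 2 rose with each chemical at 120 mg/kg, where 5.29% and 7.84% of all genes rose. With the dimmer probe sets left out 1 was called with DMPT. Their mean level ran from 4.00 to 4.24 in DMPT vehicle and from 4.13 to 4.51 at 120 mg/kg, and with p-toluidine from 3.50 to 3.71 and from 3.69 to 4.00. Ahsp, the chaperone of alpha globin, rose by 0.64 and 0.57, while Hbb was at 0.28 and 0.11, uncalled. Of 17 hepatocyte markers, 5 fell and none rose with each chemical, with medians of -0.14 and -0.14, while 7.43% and 6.91% of all genes fell. With DMPT the count was 8 with a trended prior or with the dimmer probe sets left out, and 3 with only the 10 arrays compared. Their mean level ran from 12.07 to 12.21 in DMPT vehicle and from 11.92 to 12.00 at 120 mg/kg, and with p-toluidine from 11.80 to 11.97 and from 11.63 to 11.73. Hpx (-0.31 and -0.37) and Apoc3 (-0.30 and -0.58) fell with both chemicals. Hnf4a fell with DMPT (-0.52) and was at -0.31 with p-toluidine, uncalled. Tat was at -0.82 with DMPT, uncalled, and fell with p-toluidine (-0.95). Alb, the albumin gene, was at 0.01 with each. The part of these cells in the Gstp1 values was not tested.

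The markers of other cell types were counted at 120 mg/kg against the same shares of all genes. Of all genes 5.29% rose and 7.43% fell with DMPT (12.7% in all), and 7.84% rose and 6.91% fell with p-toluidine (14.8% in all). Of 13 Kupffer cell markers, 1 rose with DMPT and 2 fell with p-toluidine. None of 11 endothelial markers was called by limma with either chemical. Of 15 stellate cell markers, 1 rose and 3 fell with DMPT and 6 fell with p-toluidine. With DMPT the count of 4 was 2 in 3 of 10 fits that left out 1 array and without the 5 arrays of narrow spread, and the member that rose, Rgs5, lost its call in 7 of those 10 fits. Of 13 lymphocyte markers 1 rose with DMPT. The single Kupffer and lymphocyte calls with DMPT were lost in 4 and 5 of 10 fits that left out 1 array. With p-toluidine the Kupffer count of 2 was 1 in 4 of 10 such fits. There Lyz2, which fell by 0.38, lost its call in 5 of 10.

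RNA quality moved a little with dose, too. The actin control gap, 3′ minus 5′ probe set, was 1.48 ± 0.15 in DMPT vehicle and 1.28 ± 0.08 at 120 mg/kg, and 1.80 ± 0.15 and 1.52 ± 0.09 with p-toluidine. Its part in the Gstp1 values was not tested. The DMPT set held 5 arrays whose values had a narrow interquartile range, 1 at 6 mg/kg and 2 each at 60 and 120 mg/kg. Without them Gstp1 stood 1.77, 5.55 and 5.97 above vehicle at these doses.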

How the data were processed

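Liver RNA was measured on 60 Affymetrix arrays in 12 groups of 5, taken from the labels. The deposited values are taken as log2 expression values per probe set: the authors used RMA, per the submitters' processing notes, which give no version or settings, and the log2 scale was inferred from the range of the values. The genome build is not given in the sources that were used. Array medians differ by chemical, so levels were compared within a chemical only. RMA values carry no count or depth, so the number of arrays limits the precision.

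Of 31099 probe sets, 57 controls were left out. Symbols were those of GEO's platform table, brought up to date with RefSeq by gene ID: 20826 probe sets had 1 symbol (20758 with an ID in that table), 436 several and 9780 none. Each gene was represented by its 1-symbol probe set with the highest mean. With limma 3.58.1 in R 4.3.3, 6 group means were fitted to the 30 arrays of a chemical, with no covariate, and doses were contrasted with vehicle. The threshold for a call was an adjusted p of 0.05 (Benjamini-Hochberg, all probe sets). Differences between chemicals used all 60 arrays. The series' design text names ORIOGEN at a false discovery rate of 5%, which was not used here. Alternatives were another normalization or centring, leaving out arrays, a filter on dim probe sets, a trended prior, a replicate block and other measures of likeness. Scripts were tested on simulated data. Molecular weights came from RDKit 2024.09.2.

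Members and gene lists were chosen with earlier results of these data known. Genes named were Gstp1, the 10 most like it on the DMPT arrays, from each list up to 4 with the largest change at 120 mg/kg of DMPT, Nfe2l2 and Keap1, up to 3 genes per contrast that rose more than Gstp1, and the 3 nearest measured neighbours on each side. Icoslg, Slc26a1, Cyfip2, Gstm7, Mgst1, Gstz1, Srxn1, Txnrd1, Gclc, Abcc2, Afp, Gpc3, Krt7, Krt19 and Alb were added after their values were seen. Promoters were matched by symbol for 9 of the 10 like genes, 16 of the 20 transferases and 21 of the 25 NRF2 targets. None of the 9, 1 of the 16 and 2 of the 21 held TGACTCA, and 0, 4 and 3 held TGACNNNGC.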

Additional observations from a re-analysis of the deposited data

Results flagged for a closer look

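Among 88 groups of 5 arrays examined for Gstp1 and the genes whose arrays are compared with it, 3 had an array far from the others, and chance flags about 1 group in 20. Gstm1 stood at 12.39 in replicate 5 of the 120 mg/kg p-toluidine group, where the other arrays lay between 12.10 and 12.16. Nfe2l2 stood at 8.65 in replicate 1 of the 6 mg/kg DMPT group, where the others lay between 8.37 and 8.41. Nfe2l2 stood at 8.06 in replicate 2 of the 60 mg/kg p-toluidine group, where the others lay between 7.53 and 7.68. No Gstp1 group was among them, and the wide groups at 6 mg/kg of DMPT and 20 mg/kg of p-toluidine held no single array apart from the rest by this measure.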

How the results depend on the processing

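Gstp1 responses and differences of responses were recomputed, which gave 200 values from fits with 1 array left out and 70 from other recomputations. Restated as percentile ranks, 10 responses kept their sign. Every response and difference moved by less than the pooled SD between arrays of a group in all these recomputations. The p-toluidine responses at 1 and 6 mg/kg, both close to 0, changed sign under some: the differences of medians were -0.15 and -0.07, and the lowest values with 1 array left out -0.12 and -0.05, and centring arrays on their medians gave -0.0071 at 1 mg/kg. With 1 array left out the response ran from 1.21 to 1.90 at 6 mg/kg of DMPT, from 5.79 to 6.01 at 120 mg/kg of DMPT, from 2.05 to 2.71 at 20 mg/kg of p-toluidine, from 6.28 to 6.48 at 120 mg/kg of p-toluidine, and from 1.44 to 2.11 for the difference at 20 mg/kg. The replicate numbers do not pair the arrays (mean correlation of deviations -0.0011 with DMPT and -0.0043 with p-toluidine, 75 pairs each); with the replicate number as a block the 120 mg/kg responses stayed 5.91 and 6.41, and the calls at 6 mg/kg of p-toluidine went from 0 to 1. Counts of called probe sets at 6 mg/kg of DMPT (52) were 93 after quantile normalization over all 60 arrays (48.4% of them higher, against 32.7%), 33 with arrays centred on their medians, 93 with a trended prior, 101 without the dimmer probe sets and 15 with only the 10 arrays compared; at 6 mg/kg of p-toluidine (0; 2557 at an unadjusted p below 0.05) they were 1, 0, 1, 0 and 2. With only the 10 arrays compared, counts were 899 at 60 mg/kg of DMPT (1613), and 133 and 734 at 20 and 60 mg/kg of p-toluidine (244 and 1400). Without the dimmer probe sets, 390 were called at 20 mg/kg of p-toluidine. At 120 mg/kg of DMPT, 1 partner of the protein and 1 regulator were called without the arrays of narrow spread (2 each), and 1 regulator without the dimmer probe sets; with p-toluidine, 1 partner with only the 10 arrays compared (2). Of the 10 like genes, 6 stayed with Spearman rho and 0 with the 6 group means. With 1 array left out, calls ran from 18 to 73, and from 472 to 666 (810), at 6 and 20 mg/kg of DMPT, and from 0 to 4, 0 to 5 and 115 to 247 at 1, 6 and 20 mg/kg of p-toluidine. At 6 mg/kg of DMPT the count fell to 33, 30, 18 and 31 without vehicle replicates 1, 3, 4 and 5, and to 31 and 23 without dosed replicates 4 and 5. At 20 mg/kg of DMPT it was 499 without vehicle replicate 3 and 472 and 479 without dosed replicates 2 and 4. At 20 mg/kg of p-toluidine it was 139 and 115 without vehicle replicates 2 and 4 and 136, 124 and 152 without dosed replicates 1, 2 and 3. The like genes kept ran from 6 to 8, partners from 1 to 2 (DMPT) and 1 to 3 (p-toluidine), export genes from 3 to 5 (DMPT), and regulators from 1 to 3 and 1 to 4. Of 4620 values of single named genes or contrasts, 87 lost and 30 gained a call. The cause was not tested.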
